A study of Drosophila melanogaster with 91 samples.

Results

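Genes of DNA replication and of S phase, the part of the cell cycle in which the genome is copied, were followed through the development of the fruit fly Drosophila melanogaster. The set was named by gene symbol and held 10 genes, 9 of which were among the 15682 in the table. These were 6 subunits of the MCM helicase (dpa, Mcm2, Mcm3, Mcm5, Mcm6 and Mcm7), the clamp PCNA, the nucleotide enzyme RnrL, the cyclin CycE and the histone mRNA factor Slbp. Symbols were matched through FlyBase identifiers, and Mcm3 was not analysed here. The samples were 91 whole single embryos with no treatment, mutation or strain named in the labels, collected from laying cages, stripped of the chorion and frozen when each reached its time after cellularization, the step that turns the shared cytoplasm of the early embryo into cells. There was 1 embryo at each labelled time from -15 to 1335 min, in steps of 15 min. RNA of each embryo was read by CEL-Seq, which copies poly(A) RNA with barcoded primers and sequences the transcript ends. A level was compared between embryos for 1 gene and never between genes.

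As background, the MCM proteins form a ring of 6 different subunits that is loaded at replication origins before S phase and then unwinds the DNA as the core of the replicative helicase. PCNA is a ring that slides on DNA and holds the polymerases in place, the ribonucleotide reductase subunits RnrL and RnrS make the deoxynucleotides, and Cyclin E with Cdk2 starts S phase. Slbp binds the stem-loop at the end of replication-dependent histone mRNAs, which have no poly(A) tail. In the fly, the egg is stocked with these transcripts and the nuclei divide quickly without gap phases until cellularization. Slower cycles with regulated phases follow, after which most cells stop dividing while neuroblasts, the stem cells of the nervous system, go on and many larval tissues start endocycles, in which DNA is copied without division.

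With 1 embryo per time, embryos were set into 7 consecutive windows of 13 for comparison: window 1 (-15 to 165 min), window 2 (180 to 360 min), window 3 (375 to 555 min), window 4 (570 to 750 min), window 5 (765 to 945 min), window 6 (960 to 1140 min) and window 7 (1155 to 1335 min). Each window thus mixed ages, and the spread within it held both age and embryo. Levels are given as CPM, a count scaled to 1000000 gene counts in the embryo. The libraries held 3662 to 3308015 gene counts with a median of 1644069, and 6 of them, at 120, 210, 825, 1065, 1155 and 1170 min, held less than the median divided by 3. In the library at 120 min 96.0% of gene and spike-in counts were spike-ins, and 1 count there was worth 273 CPM, so a 0 in it allowed up to 819 CPM. In the other libraries a 0 allowed at most 7.66 CPM (3 counts; counting error only). The embryo labelled 825 min went against its time: it held 362 CPM of bcd, a transcript the mother lays down in the egg, and no count of the neuronal gene elav, where the medians of window 5 were 0 CPM for bcd and 280 CPM for elav. Results that rest on these libraries are given with and without them where both fits were run. Embryos had been sequenced in 4 library pools that followed labelled time, so that time and pool cannot be told apart at the pool borders (315 to 330, 645 to 660 and 990 to 1005 min). In whole embryos, fewer dividing cells and less RNA per cell cannot be told apart.

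All 9 genes varied with labelled time. For the 8 other than RnrL, the window 7 median was 1.06% to 3.68% of the highest window median, and RnrL was highest in the first embryos. Each of the 9 passed the test of a smooth curve over the 91 embryos (edgeR's quasi-likelihood test, Benjamini-Hochberg adjusted p under 0.05), but so did 82.1% of the 8717 genes tested, so passing it does not set them apart. The fitted curves spanned a log2 range of 2.30 for RnrL to 7.44 for Mcm7, with 7.33 for CycE, 5.66 for dpa, 5.64 for Mcm5, 5.35 for PCNA, 5.03 for Mcm2, 4.42 for Slbp and 4.34 for Mcm6. The median range was 5.35 over the 9 genes and 3.17 over all genes tested. The adjusted p was smallest for Slbp (5.37e-19) and largest for RnrL (2.77e-04). With library pool as a covariate the other 8 genes were still called, beside 36.1% of the 8717 genes, and RnrL was not (adjusted p = 0.262). Within library pool 4 (-15 to 315 min, 23 embryos) a curve with 3 degrees of freedom called RnrL, dpa, Mcm7 and Mcm6, beside 44.2% of 6017 genes. Within pools 5, 6 and 7 edgeR called none of these genes, and 0, 8 and 6 of them had an unadjusted p under 0.05. Mcm7 did not pass the filter on low counts in pool 7. Few genes of any kind were called there: 0 of 7752, 5 of 8565 and 0 of 6486. An unadjusted p under 0.05 was reached by 549, 889 and 759 of all genes.

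**Figure D1:**
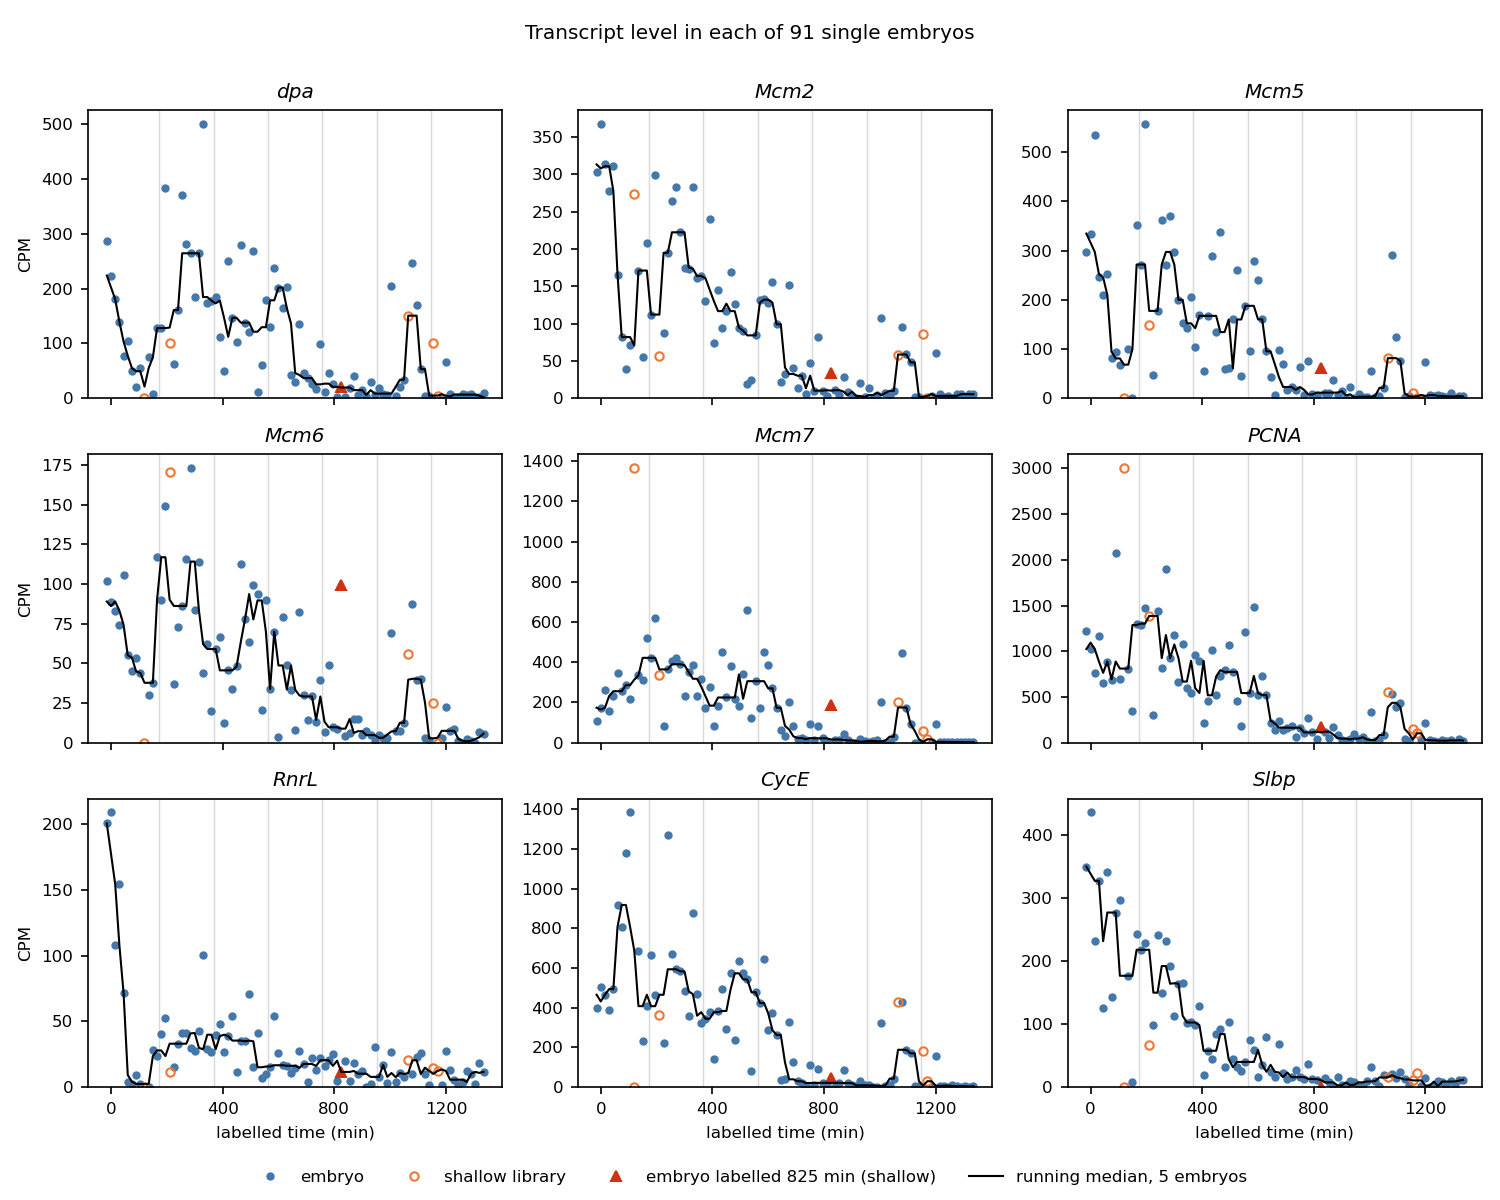
Level of each gene (CPM, linear axis from 0) in each of the 91 embryos by labelled time (min), with the running median over 5 embryos as a black line and window borders as grey lines. Open circles mark shallow libraries and the triangle the embryo labelled 825 min. CycE, PCNA, dpa, Mcm5, Mcm6 and Mcm7 are mostly low after about 690 min, with a group of higher embryos near 1005 to 1110 min, while the running medians of Slbp and Mcm2 are under 50% of their highest value from 285 and 390 min.

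The 5 measured helicase subunits did not have the same course. Mcm2 (FBgn0014861) and Mcm5 (FBgn0017577) had their highest medians in window 1, at 208 and 210 CPM. Mcm6 (FBgn0025815), Mcm7 (FBgn0020633) and dpa (FBgn0015929), the fly Mcm4, had theirs in window 2, at 86.1, 364 and 184 CPM. From window 1 to window 7 the median of Mcm2 was 208, 175, 94.6, 46.9, 9.93, 10.1 and 5.52 CPM. That of Mcm7 was 263, 364, 225, 95.5, 14.4, 11.3 and 3.88 CPM. That of dpa was 77.5, 184, 138, 99.0, 15.0, 21.0 and 6.78 CPM. Relative to its highest median, that of window 7 was lowest for Mcm7 and highest for dpa among the 5.

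PCNA (FBgn0005655), the sliding clamp, had medians of 888, 1075, 774, 211, 95.3, 59.6 and 27.2 CPM from window 1 to window 7. CycE (FBgn0010382), the S phase cyclin, had 494, 483, 384, 124, 20.4, 10.4 and 6.25 CPM. For CycE the neighbouring windows 1, 2 and 3 overlapped widely, with ranges of 0 to 1385, 221 to 1272 and 81.2 to 635 CPM. The 0 was the library at 120 min, and without it the lowest of window 1 was 233 CPM. Slbp (FBgn0041186) had 242, 164, 44.7, 24.3, 9.64, 12.1 and 8.86 CPM, and its window 4 median was 10.1% of its highest one, where that of CycE was 25.2% and that of PCNA 19.7%. RnrL (FBgn0011703), the large subunit of ribonucleotide reductase, had 23.6, 33.0, 35.4, 16.6, 12.3, 10.0 and 11.5 CPM. These medians do not show its highest level, which came in the first embryos of window 1: the running median over 5 embryos was highest at -15 min, at 201 CPM. Its mean was 10.5 ± 7.44 CPM in window 7, against 62.6 ± 79.2 CPM in window 1 (SD, n = 13 each).

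The time at which the running median over 5 embryos last went under 50% of its highest value gives an order of decline. RnrL came first at 45 min, then Slbp at 285 min and Mcm2 at 390 min. CycE followed at 570 min, Mcm5, Mcm6 and PCNA at 600 min and Mcm7 at 630 min, so that these 5 genes lay within 60 min of each other. For dpa this time was 1110 min with 5 embryos and 660 min with a running median over 9, so its place in the order rests on the few high embryos between 1005 and 1110 min. The order of the later genes also depends on the level chosen. At 25% of the highest value RnrL (60 min) and Slbp (405 min) were still first, Mcm2, Mcm5 and CycE came together at 660 min, and the time was 1110 min for dpa and Mcm7 and 1125 min for Mcm6 and PCNA.

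**Figure D2:**
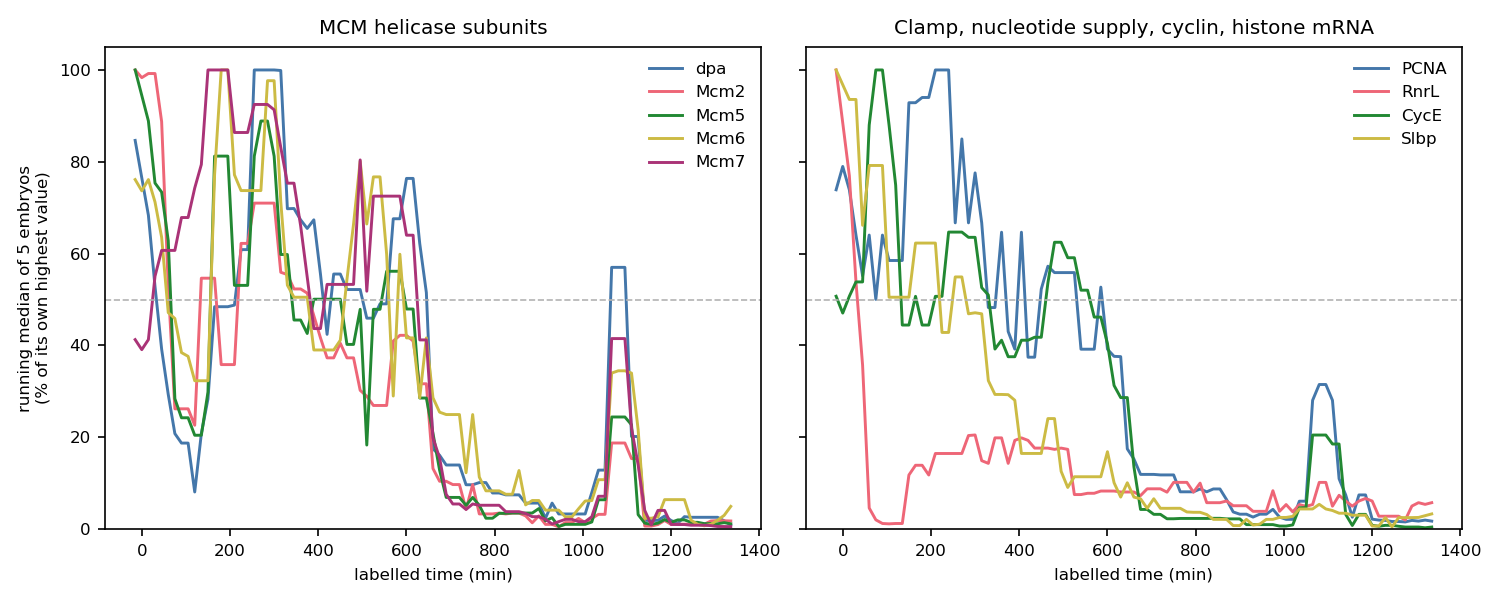
Running median over 5 embryos as a percentage of its own highest value, by labelled time (min), for the 5 helicase subunits (left) and for PCNA, RnrL, CycE and Slbp (right), with 50% as a dashed line. RnrL leaves its highest values by 45 min and Slbp by 285 min, while CycE, PCNA, Mcm5, Mcm6 and Mcm7 pass 50% for the last time between 570 and 630 min.

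In the early embryos these genes differed in direction. Within window 1 the question was which transcripts decline as the egg's stock gives way to the embryo's own transcription. A linear trend over the 13 embryos called Mcm7 alone of the 9 genes, which rose by 0.78 ± 0.18 (SE) on the log2 scale per 60 min (edgeR, adjusted p = 0.00536). Of 6483 genes tested, 21.4% were called and 4.41% were called higher, and the median of all genes was -0.21. Mcm7 was at 107, 174, 263, 156, 232, 345, 256, 286 and 217 CPM from -15 to 105 min, and at 335, 313 and 521 CPM at 135, 150 and 165 min. The library at 120 min, with 5 counts of Mcm7, is left out of this list, and without it the trend was 0.77 with an adjusted p of 0.00183. Relative to the spike-ins the trend of Mcm7 was 0.06 and was not called, while the median of all genes was -0.89. That fit kept the library at 120 min, where 5 counts of Mcm7 stood beside 88760 spike-in counts. At 105 and 135 min, 356 and 188 counts stood beside 66695 and 32150. Spike-in scaling was not run without that library, so it cannot show whether the rise of Mcm7 holds on that scale.

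RnrL went the other way. It was at 201, 209, 108, 154 and 71.7 CPM from -15 to 45 min. It was then at 4.04, 2.29, 9.21 and 2.44 CPM from 60 to 105 min, at 0 CPM at 135 min, and at 27.9 and 23.6 CPM at 150 and 165 min. The 5 embryos up to 45 min and the 4 from 60 to 105 min did not overlap. This split was made after the values were seen, and the share of all genes that separate at it was not counted. A straight line over the whole window had a slope of -1.02 ± 0.40 per 60 min and was not called by edgeR (adjusted p = 0.0736). It was called with DESeq2, with its size factors, with limma voom and relative to the spike-ins. The slopes there were -2.28 to -1.26 (adjusted p of 0.00159 to 0.0337). These 4 fits kept the library at 120 min, which held 0 counts of RnrL among 3662 gene counts, and were not run without it. By edgeR the slope of RnrL was not called without that library either.

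Such a dip was also present in dpa, Mcm2, Mcm5 and Mcm6. Mcm6 was at 102 CPM at -15 min, 43.9 CPM at 105 min, 30.3 CPM at 135 min and 117 CPM at 165 min. From -15 to 105 min dpa was at 287, 224, 181, 140, 77.5, 104, 49.5, 21.3 and 54.9 CPM. Over the same embryos Mcm2 was at 303, 368, 313, 278, 311, 166, 82.0, 38.9 and 70.8 CPM. Both were higher again at 165 min, at 128 CPM for dpa and 208 CPM for Mcm2. The embryo at 150 min was low in dpa (8.20 CPM), Slbp (8.20 CPM) and Mcm5 (0 CPM), while Mcm7 was at 313 CPM in it.

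A trend over the 9 embryos from -15 to 105 min alone, chosen after these values were seen, called 6 of the 9 genes, beside 35.9% of 6727 genes. RnrL fell by 3.17 ± 0.58 per 60 min on the log2 scale (adjusted p = 0.00517), dpa by 1.16 ± 0.28, Mcm2 by 1.14 ± 0.31 and Mcm5 by 0.97 ± 0.31. CycE rose by 1.22 ± 0.21 (adjusted p = 0.00407) and Mcm7 by 0.82 ± 0.27 (adjusted p = 0.0341). CycE was at 390 to 507 CPM in the 5 embryos from -15 to 45 min and at 808 to 1385 CPM in the 4 from 60 to 105 min, with no overlap. It was at 688, 233 and 408 CPM at 135, 150 and 165 min. For CycE as well, the split was made after the values were seen and not set against all genes. Mcm6 (-0.29), PCNA (0.36) and Slbp (0.06) were not called. Among the 5 helicase subunits the values of dpa, Mcm2, Mcm5 and Mcm6 were negative and that of Mcm7 was positive.

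**Figure D3:**
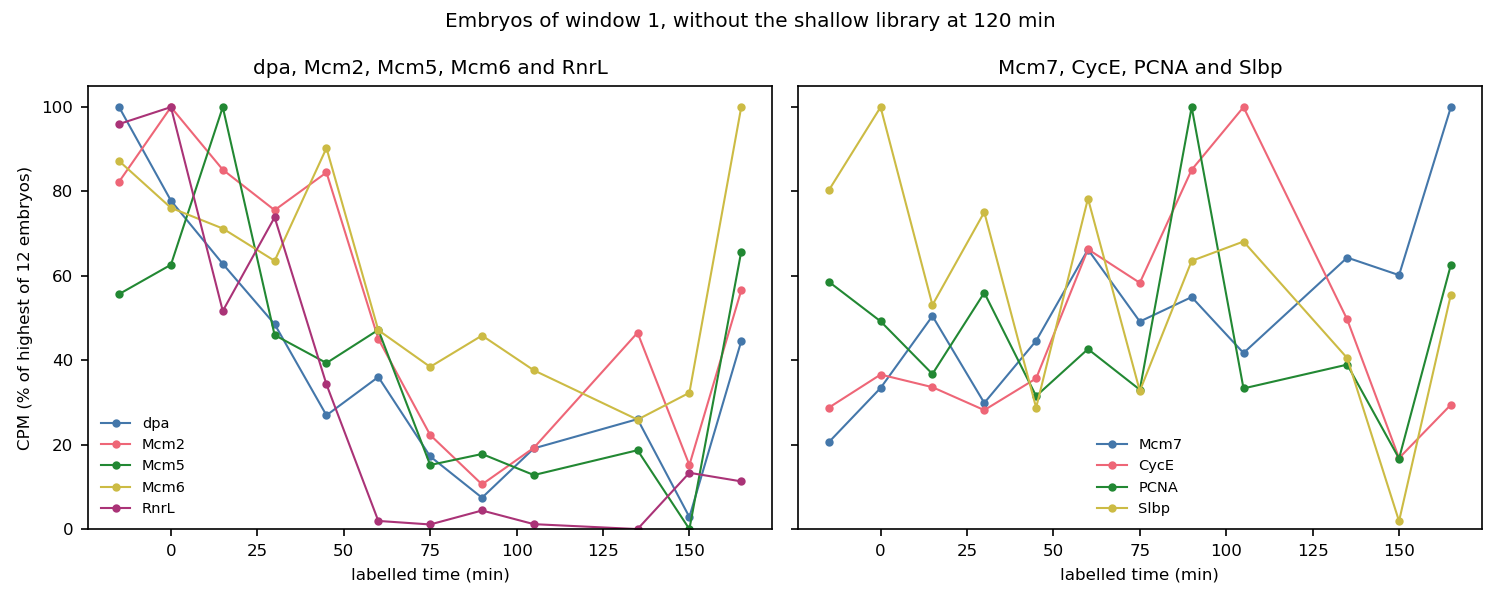
Level in each embryo of window 1 as a percentage of the highest of 12 embryos, by labelled time (min), without the library at 120 min. On the left, RnrL, dpa, Mcm2, Mcm5 and Mcm6 are under 50% of their highest embryo between 75 and 150 min; on the right, CycE is high at 60 to 105 min and Mcm7 is highest at 165 min.

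Other replication genes, 58 of a list of 63 that had a row, were read in the same fits. In the trend over window 1, 12 of the 55 tested fell and none rose, where 17.0% of all genes were called lower, with a list median of -0.33 beside -0.21 over all genes. Among those with the largest change were Fen1, the flap nuclease that trims Okazaki fragments (-3.53 ± 0.75 per 60 min), PolD1, the catalytic subunit of polymerase delta (-3.09 ± 0.49), and Cdc7, the kinase that activates the helicase (-2.06 ± 0.46). The Cdk2 inhibitor dap fell by 1.36 ± 0.39 per 60 min (adjusted p = 0.0202). RnrS (-0.31), E2f1 (-0.16) and geminin (-0.40) were not called. Over -15 to 105 min alone, 23 of the 55 fell and 3 rose, where 19.7% of all genes were called lower and 16.2% higher. RnrS fell there by 0.98 ± 0.33 beside the 3.17 of its partner RnrL.

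Between windows 2 and 1, dpa rose and no other of the 9 genes passed the test. dpa was at 61.8 to 500 CPM with a median of 184 CPM in window 2, against 0 to 287 CPM with a median of 77.5 CPM in window 1. The 0 was the library at 120 min. Without it window 1 ran from 8.20 to 287 CPM with a median of 90.5 CPM, and dpa was still called. The ranges overlapped, and the highest embryo of window 2 was at 330 min. The log2 change was 1.35 ± 0.36 (edgeR, adjusted p = 0.00644), where 25.1% of 5739 genes were called and 11.1% were called higher. Relative to the spike-ins it was 0.73 and not called, with a median of all genes of -0.48 in place of -0.07. The other 8 genes had changes of -0.46 (RnrL) to 0.66 (Mcm6), and within 1 library pool Mcm6 also rose, by 1.00. Of the replication list, 6 of 50 fell and none rose, where 14.0% of all genes were called lower. The largest of these were PolD2 (-1.50 ± 0.52) and PolE1 (-1.27 ± 0.45), subunits of polymerases delta and epsilon, the topoisomerase Top1 (-1.15 ± 0.28) and the checkpoint kinase grp (-1.14 ± 0.37). PolD2 and PolE1 were not called without the embryo at 120 min (-1.37 and -1.16). Within 1 library pool PolD2, PolE1 and grp were not called (-1.33, -1.08 and -0.87), and Top1 was not called relative to the spike-ins (-1.46).

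Between windows 3 and 2, Slbp fell. It was at 19.0 to 129 CPM with a median of 44.7 CPM in window 3, against 66.0 to 241 CPM with a median of 164 CPM in window 2. In window 3, 8 of 13 embryos were under the lowest embryo of window 2, the shallow library at 210 min. How many of all genes separate to this degree was not counted. The change was -1.37 ± 0.26 on the log2 scale (edgeR, adjusted p = 0.00498), in a comparison that called 3.52% of 5682 genes and 1.39% as lower. All 9 genes had negative values, with a median of -0.53 beside -0.05 over all genes, but the other 8 were not called. Windows 3 and 2 came largely from different library pools, and within 1 pool the change of Slbp was -0.91 and not called. It was -1.47 and not called relative to the spike-ins. Of 47 genes of the list, the primase subunit Prim2 (-2.32 ± 0.63) and PolA1, the catalytic subunit of polymerase alpha (-0.98 ± 0.26), fell. Neither was called relative to the spike-ins (-2.28 and -1.19) or within 1 pool (-1.95 and -0.62).

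Between windows 4 and 3, none of the 9 genes was called by edgeR, and none had an unadjusted p under 0.05. Of all genes, 0.27% of 5546 were called and 827 had an unadjusted p under 0.05. DESeq2 and limma voom called none of the 9 either, beside 193 and 11 of all genes. All 9 values were negative, from -0.88 (CycE) to -0.32 (dpa). Within window 4, the level changed from embryo to embryo. CycE was at 424, 648, 287, 371 and 263 CPM from 570 to 630 min, at 33.4 and 39.3 CPM at 645 and 660 min, at 330 CPM at 675 min, and then at 3.05 to 124 CPM. Mcm7 followed the same embryos, with 174 CPM at 630 min, 65.4 and 31.9 CPM at 645 and 660 min and 205 CPM at 675 min. The embryo at 645 min belonged to the earlier of the pools that meet there and the embryo at 675 min to the later one, so that low and high embryos stood on each side of the pool border.

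Between windows 5 and 3, 8 of the 9 genes fell, with RnrL not called. Window 5 against window 4 called dpa alone (-2.53 ± 0.47, edgeR, adjusted p = 0.0364), where 0.0956% of 6275 genes were called, all as lower. Of the 9 genes, 8 had an unadjusted p under 0.05, as had 1023 of all 6275. dpa was at 2.22 to 47.0 CPM with a median of 15.0 CPM in window 5, against 17.3 to 238 CPM with a median of 99.0 CPM in window 4. The change of dpa was -2.08 relative to the spike-ins and -1.66 within 1 library pool, and was called in neither. CycE had the largest value (-2.86 ± 0.62, adjusted p = 0.0568) and missed the threshold. Without the embryo labelled 825 min, 8 of the 9 genes fell, where 4.72% of 6423 genes were called and 4.27% were called lower. The changes were then -3.15 for Mcm7, -3.06 for CycE, -2.68 for dpa, -2.62 for Mcm5, -2.44 for Mcm2, -2.12 for PCNA, -1.76 for Mcm6 and -1.68 for Slbp, with adjusted p of 0.0196 to 0.0320. RnrL, at -0.47, was not called. These values come from the same genes and test with 1 embryo fewer, an embryo that held 187 CPM of Mcm7 and 99.2 CPM of Mcm6.

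Window 5 set against window 3, a comparison added after the data were seen, gave the same 8 genes as lower with all embryos in, beside 37.2% of 6011 genes called and 13.8% called lower. CycE was at 2.30 to 92.2 CPM with a median of 20.4 CPM in window 5, against 81.2 to 635 CPM with a median of 384 CPM in window 3. Of the 13 embryos of window 5, 11 were under the lowest of window 3, and the change was -3.74 ± 0.45 (edgeR, adjusted p = 1.45e-06). PCNA was at 13.8 to 274 CPM with a median of 95.3 CPM in window 5, against 184 to 1211 CPM with a median of 774 CPM in window 3, and the change was -2.66 ± 0.36. For PCNA, Mcm7 and Slbp 12 of 13 embryos of window 5 were under the lowest of window 3. Such counts were not made over all genes. The others changed by -3.18 (Mcm7), -2.95 (Mcm5), -2.88 (dpa), -2.56 (Mcm2), -2.28 (Slbp) and -1.79 (Mcm6), and RnrL by -1.02 (adjusted p = 0.0845). The median over the 9 genes was -2.66, beside 0.17 over all genes tested. Window 5 lay wholly in library pool 6 and window 3 in pool 5, so age and pool cannot be told apart here. Within pool 6 the values of window 5 against window 4 were -1.75 to -0.22, and edgeR called none of the 9 genes, with 4 at an unadjusted p under 0.05. Of all 7198 genes tested there, 0 were called and 239 had an unadjusted p under 0.05.

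In the same comparison 19 of 35 genes of the replication list fell and none rose. PolA2 (-2.34 ± 0.54) and PolA1 (-2.20 ± 0.41), subunits of polymerase alpha, the histone chaperone asf1 (-2.02 ± 0.40) and the licensing factor dup (-1.97 ± 0.59), the fly Cdt1, had the largest changes. RnrS fell by 1.72 ± 0.32, geminin, the inhibitor of dup, by 1.55 ± 0.43 and the transcription factor E2f1 by 0.98 ± 0.21. dap was not called (-1.17 ± 0.51, adjusted p = 0.0702). Tissue markers moved with this drop. The summed level of 3 neuroblast markers (wor, ase, dpn) had a median of 13.8 CPM in window 5, against 81.2 CPM in window 3, with ranges of 0 to 70.8 and 24.6 to 129 CPM. That of 2 muscle markers (Mhc, Mef2) had a median of 1417 CPM in window 5, against 262 CPM in window 3, with ranges of 66.9 to 3675 and 69.0 to 456 CPM. The pair did not move together: the median of Mhc was 1227 CPM in window 5, against 12.4 CPM in window 3, and that of Mef2 was 159 CPM in window 5, against 241 CPM in window 3. Their part in the drop was not tested.

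**Figure D4:**
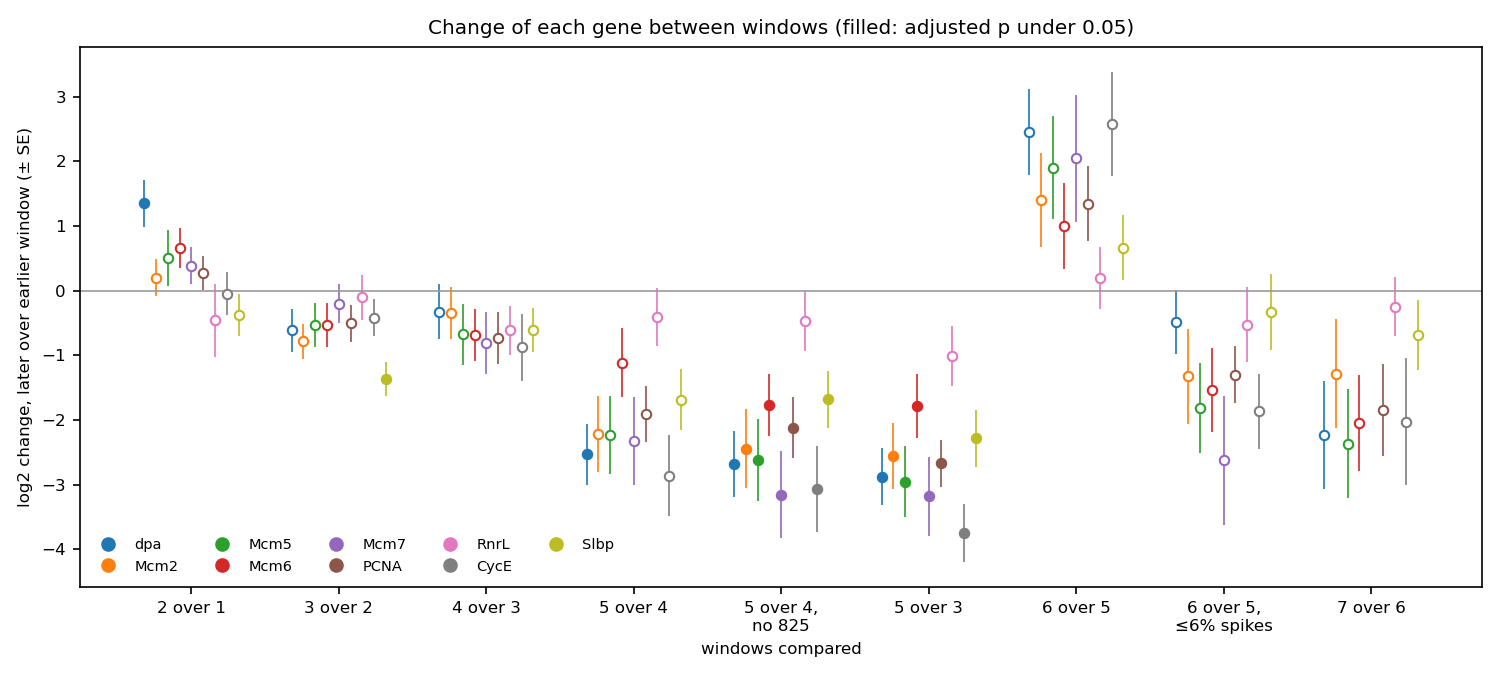
Log2 change of each gene between windows, later over earlier, with standard errors; filled points had an adjusted p under 0.05 (edgeR). The 8 genes other than RnrL lie between -3.15 and -1.68 for window 5 over 4 without the embryo labelled 825 min. For window 6 over 5, dpa, CycE and Mcm7 are among the genes that change sign without the embryos of window 6 over 6% spike-ins.

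Late embryos were uneven. Between windows 6 and 5 none of the 9 genes was called by edgeR, 5 had an unadjusted p under 0.05, and 0.549% of 6198 genes were called. Of those 6198 genes, 1089 had an unadjusted p under 0.05. DESeq2 called dpa (2.19) and CycE (2.33) beside 6.15% of all genes, and limma voom none of the 9. The edgeR values were all positive, from 0.20 (RnrL) to 2.58 ± 0.81 (CycE, adjusted p = 0.0959) and 2.45 ± 0.66 (dpa, adjusted p = 0.0631). The medians of CycE did not follow, with 10.4 CPM in window 6 and 20.4 CPM in window 5. A few embryos of window 6 carried the means: CycE was at 321, 429, 431, 188 and 170 CPM at 1005, 1065, 1080, 1095 and 1110 min, and at 1.24 to 42.7 CPM in the other 8. Within 1 library pool the value of CycE was -2.23 and that of dpa -0.33. That fit held 16 embryos, and those of window 6 were only the ones at 960, 975 and 990 min. None of the 5 high embryos was in that pool. A further fit left out embryos over 6% spike-ins in window 6 only, a limit set after seeing the data. All 5 high embryos were left out, while the embryo labelled 825 min of window 5, at 8.05%, stayed in. The values were then -1.86 for CycE and -0.48 for dpa, and the change of sign rests on which embryos were left out. None of the 9 genes was called, and 0 of all 7300.

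The same embryos were high in most of the other genes. dpa was at 204, 151, 247, 169 and 53.3 CPM in those 5 embryos and at 4.83 to 33.9 CPM in the other 8 of window 6. PCNA was at 340, 554, 537, 389 and 437 CPM and at 14.4 to 84.2 CPM. RnrL was at 26.7, 20.4, 9.95, 22.8 and 26.0 CPM in these 5, with 1.44 to 16.8 CPM in the others, so its ranges overlapped. Slbp overlapped as well, with 31.5, 15.3, 21.0, 14.1 and 23.4 CPM in these 5 and 1.99 to 18.8 CPM in the others. In window 7 the embryos at 1155 and 1200 min had 181 and 156 CPM of CycE, where the other 11 had 0.92 to 29.5 CPM. In window 5 the embryo at 780 min was the highest in 6 of the 9 genes.

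These embryos also differed in stage markers. Mhc, the muscle myosin heavy chain, was at 9.70, 28.1, 32.1, 95.2 and 181 CPM in the embryos at 1005, 1065, 1080, 1095 and 1110 min, and at 59.1 and 55.0 CPM at 1155 and 1200 min. The median of Mhc was 1510 CPM in window 6 and 1888 CPM in window 7. Their spike-in share was 6.80% to 9.82%, and the median of all libraries was 4.98%. The heat-shock gene Hsp26 was at 360 to 1728 CPM in them. In the other 19 embryos of windows 6 and 7 the spike-in share was 3.20% to 13.5% and Hsp26 was at 5.42 to 1024 CPM, so both overlapped. The summed neuroblast markers were at 72.8, 209, 92.9, 145 and 86.4 CPM in the 5 embryos of window 6 and at 106 and 94.1 CPM in the pair of window 7, where the window medians were 8.73 and 6.36 CPM. The egg transcript bcd was at 17.0 CPM at 1005 min and at 0 to 0.65 CPM in the other 6.

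Over the 39 embryos of windows 5 to 7, the summed level of the 9 genes had a Spearman correlation of -0.84 with Mhc, -0.81 with the synaptic gene nSyb and -0.66 with the cuticle gene TwdlN. It was 0.79 with dpn, 0.62 with wor, 0.59 with the neuronal gene elav, 0.57 with the spike-in share, 0.44 with Hsp26 and -0.39 with labelled time. Without the embryo at 825 min and the shallow libraries (35 embryos) the values were -0.80 for Mhc, -0.75 for nSyb, -0.69 for TwdlN, 0.76 for dpn, 0.69 for wor, 0.66 for elav, 0.46 for the spike-in share, 0.28 for Hsp26 and -0.46 for time. The points share library pools, and all levels are shares of 1 total, so these are descriptions. The part of stage, RNA amount or library in the high values was not tested.

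**Figure D5:**
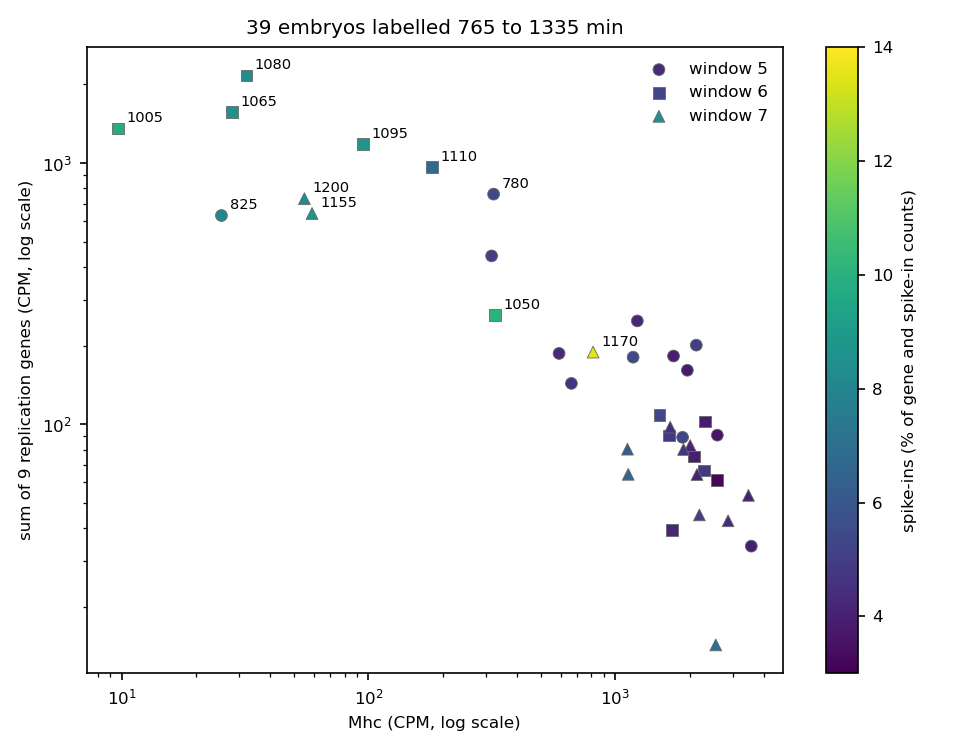
Summed level of the 9 genes (CPM, log axis) against Mhc (CPM, log axis) in the 39 embryos of windows 5 to 7, with the spike-in share as colour and labelled times (min) beside selected embryos. Embryos with the highest sums, at 1005, 1065, 1080, 1095 and 1110 min, had 9.70 to 181 CPM of Mhc.

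Between windows 7 and 6, none of the 8 genes tested was called by edgeR, with 5 at an unadjusted p under 0.05, and 0.0% of 6151 genes were called (781 at an unadjusted p under 0.05). DESeq2 called 61 genes and limma voom none, and neither called any of the 8. Their values were all negative, from -2.37 (Mcm5) to -0.24 (RnrL), and Mcm7 did not pass the filter on low counts. Over the whole course, window 7 against window 1, added after the data were seen, called 8 of the 9 genes lower, beside 57.7% of 5527 genes called and 26.1% called lower. Slbp was at 0 to 22.1 CPM with a median of 8.86 CPM in window 7, against 0 to 435 CPM with a median of 242 CPM in window 1, where the lowest value is the library at 120 min. Its change was -3.88 ± 0.55 (adjusted p = 5.29e-07). PCNA was at 0 to 217 CPM with a median of 27.2 CPM in window 7, against 348 to 3004 CPM with a median of 888 CPM in window 1. The 3004 CPM were 11 counts in the library at 120 min, and without it the highest was 2080 CPM. PCNA and Mcm7 did not overlap between these windows, and the share of all genes that separate so was not counted. The change of PCNA was -3.24 ± 0.52. CycE changed by -3.53 ± 0.75, Mcm7 by -3.41 ± 0.61, Mcm5 by -3.27, Mcm2 by -2.83, Mcm6 by -2.47 and dpa by -1.74 (adjusted p = 0.0195). RnrL, at -1.39 ± 0.61, missed the threshold (adjusted p = 0.0519). A further fit left out shallow libraries and, in window 7 only, embryos over 6% spike-ins, a limit set after seeing the data. The same change was then -6.62 for CycE, -5.50 for Mcm7, -4.73 for Slbp and -3.85 for dpa. In window 1 the embryo at 150 min, with 7.81% spike-ins, stayed in. Those left out of window 7 included the embryos at 1155 and 1200 min, with 181 and 156 CPM of CycE. The larger falls thus rest in part on which embryos were left out. With all embryos in, 26 of 31 genes of the replication list fell. dap (1.42 ± 0.73), Psf3 (0.67 ± 0.39) and E2f1 (-0.34 ± 0.35) were among the 5 not called.

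Partners and regulators of these genes were read in the same windows. RnrS, the small reductase subunit, averaged 279 ± 233, 284 ± 139, 184 ± 63.7, 135 ± 121, 48.7 ± 35.0, 69.7 ± 67.7 and 24.1 ± 17.4 CPM from window 1 to window 7 (SD, n = 13 each). E2f1 averaged 338 ± 178 CPM in window 1, 507 ± 230 CPM in window 2 and 134 ± 81.5 CPM in window 7. dap, which holds Cdk2 with Cyclin E in check, averaged 107 ± 140, 323 ± 257, 365 ± 295, 282 ± 209, 138 ± 156, 151 ± 164 and 125 ± 181 CPM, and its SD was larger than its mean in window 1 and in windows 5 to 7. Over all 91 embryos 51 of 53 list genes tested varied with time, where 82.1% of all genes did, and RPA1 and Psf3 did not pass. By mean level, 38 of the 53 were highest in window 1 and 13 in window 2, with 1 each in windows 3 and 5. Of all 8717 genes tested, 35.2% were highest in window 1 and 13.8% in window 2.

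The 9 genes tended to be high in the same embryos. Over the 36 pairs, the Spearman correlation of log2(CPM + 1) over 91 embryos had a median of 0.80, from 0.51 (Mcm7 with RnrL) to 0.90 (Mcm7 with PCNA). After the smooth time course was taken out of each gene the median was 0.59, from 0.25 (Mcm7 with RnrL) to 0.81 (dpa with Mcm5). In window 1 alone (13 embryos) it was 0.21, and the pairs ran from -0.67 (Mcm7 with RnrL) to 0.90 (dpa with Mcm5). RnrL had the lowest median with the other 8, at 0.58. Embryos share library pool, depth and stage, so these values describe the samples.

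Among 5879 other genes of at least 10 CPM on average, those most like the mean of the 9 by Spearman correlation over the 91 embryos were CG42232 (0.92), Delta (0.91), CycA (0.91), Set8 (0.91), pav (0.91), Mapmodulin (0.91), scra (0.90) and Ndc1 (0.90). CycA is the cyclin of S phase and mitotic entry, Set8 a histone methyltransferase, and pav and scra are a kinesin-like protein and an anillin of cell division. The least like were Mlc1 and TpnC47D, a myosin light chain and a troponin C of muscle, both at -0.88. Of the replication list, geminin, mxc and dup stood highest, each at 0.90.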

How the data were processed

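Single-embryo CEL-Seq libraries were analysed from 1 table of raw read counts per gene that the authors deposited, with no normalization. The submitters' processing notes name build BDGP5 and the tools HTSeq 0.5.4p3, Bowtie2 2.1.0 and CASAVA 1.8. The strand setting was not given in the sources used here, so reads of genes that overlap cannot be told apart. A deposited sample sheet, whose values of the type other are not measurements, gave lane and pool. Of all counts, 60.7% fell on genes, 3.29% on spike-ins, 16.6% outside genes, 2.44% on ambiguous places and 17.1% were not aligned. Only gene counts entered library sizes and tests. The reference given is another build, so no coordinates are printed, and 15002 of 15682 identifiers had a symbol. No columns of other samples were present.

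Tests used edgeR 4.0.16 (R 4.3.3; quasi-likelihood F-test, TMM, filterByExpr, Benjamini-Hochberg over all genes tested, threshold 0.05) on all genes: a natural cubic spline of time with 5 degrees of freedom, 6 comparisons of adjacent windows, and a linear trend in window 1. Standard errors are the log2 change over the square root of F. Correlations used a pseudocount of 1. Alternatives were DESeq2 1.42.0, limma voom 3.58.1, other scalings and filters, and left-out libraries. The fits were tested on simulated data with known changes. The genes named are all 10 of the set, up to 4 called genes of the replication list per comparison with the largest change, RnrS, E2f1, dap and geminin, and the 8 genes most like the set; 1 gene that this rule names is not reported here. Psf3, RPA1, Mlc1, TpnC47D, mxc, dup and the stage markers beside the late embryos were named after their values were seen. The members, lists and windows were chosen with earlier results of these data known. The p-values measure the spread between embryos of different ages, 1 per time; the labels do not give their parents.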

Additional observations from a re-analysis of the deposited data

How the results depend on the processing

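No paired analysis was possible because the labels give 1 embryo per time and no replicate numbers shared between windows. Of 338 values of single genes under alternatives, 246 kept direction and side of the threshold, 48 lost the call, 37 gained it and 7 reversed. The 7 were for window 6 against window 5: dpa, CycE and Mcm7 at -0.33, -2.23 and -1.48 within 1 library pool, at -0.48, -1.86 and -2.62 without the embryos of window 6 over 6% spike-ins, and Mcm7 at -0.24 with limma voom. The fits within 1 pool and under that limit both left out the 5 high embryos of window 6. The 338 values did not include all 9 genes in each comparison. In the embryos of window 6 kept under that limit, other genes were low as well. Mcm5 was at 1.86 to 8.28 CPM and PCNA at 14.4 to 59.6 CPM, against window 5 medians of 11.5 and 95.3 CPM. Counts of called genes among the 9 also moved. The trend in window 1 called 2 with DESeq2, with its size factors and with limma voom (RnrL added, where 42.8%, 33.3% and 33.9% of all genes were called), 1 relative to spike-ins (RnrL lower, Mcm7 not called), and 6 from -15 to 105 min. That trend called 2093 of 6483 genes relative to spike-ins and 2412 of 6727 from -15 to 105 min. The time course called 4 within pool 4 and 0 in each of pools 5, 6 and 7, where 1 pool spans fewer embryos. In pools 5, 6 and 7 it called 0, 5 and 0 of all genes. Window 2 against 1 called 0 relative to spike-ins and 2 within 1 pool, beside 799 of 5739 and 1030 of 6017 genes. Window 3 against 2 called 2 with limma voom and with no filter, and 0 relative to spike-ins and within 1 pool. Of all genes, those fits called 347 of 5682, 1572 of 11833, 7 of 5682 and 0 of 7349. Window 5 against 4 called 7 with DESeq2, 6 with limma voom and 3 with no filter. It called 0 relative to spike-ins and within 1 pool, and 8 without the embryo at 825 min or without the shallow libraries. Of all genes, DESeq2 called 293 of 6275, limma voom 253 of 6275 and the fit with no filter 137 of 13000. Relative to spike-ins and within 1 pool no gene at all was called. Without the embryo at 825 min 303 of 6423 were. Window 6 against 5 called 2 with DESeq2, beside 381 of 6198 genes. Fits within a pool hold fewer embryos, and other causes were not tested. Counts over all genes moved more: window 5 against 4 called 6, with 0 to 303 under the alternatives, window 3 against 2 called 200 (0 to 1572) and window 2 against 1 called 1440 (799 to 3808).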
